A study of Mus musculus with 4 samples.

Results

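The 10 genes described here are the CXC chemokines Cxcl1, Cxcl2, Cxcl5, Cxcl9, Cxcl10, Cxcl12, Cxcl13, Cxcl14 and Cxcl16 and the only CX3C chemokine, Cx3cl1. All probe sets annotated to one of these symbols were taken, which gave 21 of the 45037 probe sets on the array for 10 of the 18193 genes it names. Transcripts were measured in cardiac Sca-1 cells, progenitor-enriched cells that carry the surface protein Sca-1, which were taken from the heart by magnetic sorting and lysed without culture. Cyc mice are double-transgenic for αMHC-CyclinT1 and Gαq, a model of heart failure. Wt mice were their wildtype littermates. According to the study, the α-MHC promoter limits the effect of the transgenes to cardiomyocytes. Its supplement lists a probe set of Gnaq, the gene of Gαq, as higher in the sorted Cyc cells. The study found no difference at the other Gnaq probe sets. All mice were on the FVB background, 6 weeks old and of either sex. Each genotype had 2 arrays, numbered 1 and 2 as biological replicates, and each array held 1 pool of cells from 2 to 3 hearts, so p-values measure the spread between 2 pools. The RNA came from 2 independent experiments, which the labels do not tie to the replicate numbers. The numbers were taken as the experiments because control transcripts added to the RNA (poly-A controls) had a median of 250.1 in Cyc and 213.9 in Wt pools numbered 1, and of -1.1 in Cyc and 0.6 in Wt pools numbered 2. Values are normalized intensities on a linear scale, on which an intensity under 50 was read as near background.

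Chemokines are small secreted proteins that guide leukocytes and progenitor cells along gradients through G protein-coupled receptors. The CXC and CX3C families are named for the spacing of the first cysteines of the protein. Those of the Cxcl1, Cxcl2 and Cxcl5 group attract neutrophils, Cxcl9 and Cxcl10 are induced by interferons and attract activated T cells, Cxcl13 draws B cells into lymphoid follicles, and Cxcl12 and Cxcl14 are made in many tissues at rest. Cxcl16 and Cx3cl1 are made as membrane-bound proteins from which proteases release a soluble form. In the heart Cxcl12 is best known for retaining and attracting progenitor cells through its receptor Cxcr4.

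The pools differed beyond genotype. The median intensity of the tested probe sets was 197.6 and 280.5 in the Cyc pools of experiments 1 and 2, and 219.4 and 260.7 in the Wt pools, and 51.6% of the tested probe sets were lower in both pools of experiment 1 than in both pools of experiment 2. The probe set that the study lists for Sca-1 itself had an intensity between 10562 and 14051 in all 4 pools. Summed markers of endothelium and fibroblasts were high in all pools, at 17501 or more, while the sum of 6 airway and alveolar markers was 363 and 16454 in the Cyc pools of experiments 1 and 2, and 2738 and 183 in the Wt pools. In a bulk pool, fewer cells of a type and less RNA per cell cannot be told apart.

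Of the 10 chemokine genes, 6 had a probe set at 50 or more in all 4 pools. These were Cxcl1, Cxcl2, Cxcl9, Cxcl12, Cxcl16 and Cx3cl1. Cxcl10, Cxcl13 and Cxcl14 reached that level in some pools, and Cxcl5 in none. By pool, 7 and 8 genes were at 50 or more in the Cyc pools of experiments 1 and 2, and 8 in each Wt pool. At a level of 25 the number found in all 4 pools was 8, and at a level of 100 it was 5. Counted as probe sets, 52.4% and 66.7% of the 21 were at 50 or more in the Cyc pools and 66.7% in each Wt pool, against 41% and 47.6% of all probe sets in the Cyc pools and 43.2% and 44.9% in the Wt pools.

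**Figure D1:**
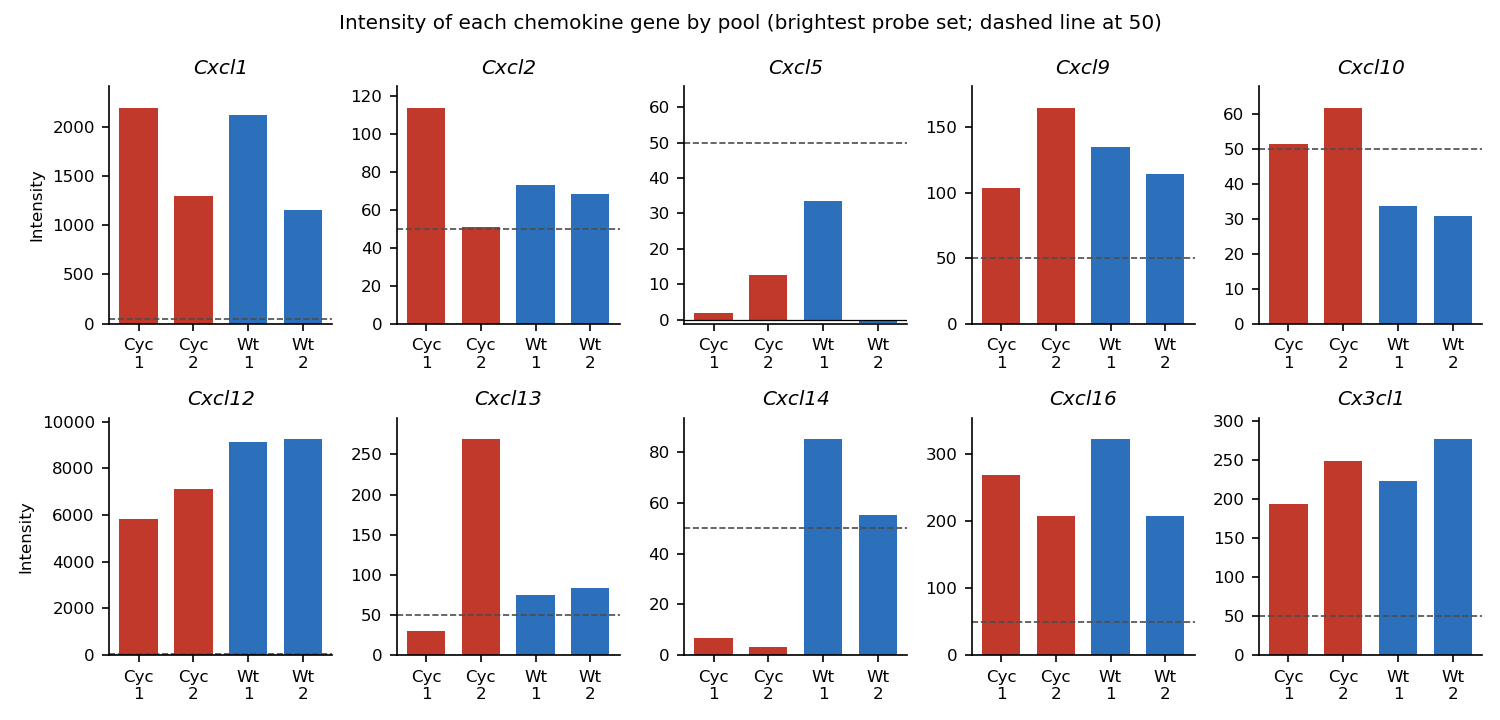
Intensity of each of the 10 chemokine genes at its brightest probe set in the 2 Cyc pools (red) and the 2 Wt pools (blue), with the linear intensity on the vertical axis and a dashed line at 50. Each panel has its own scale and the panels are not comparable in level, since probe sets differ in how they bind; Cxcl12 and Cxcl14 are lower in both Cyc pools than in both Wt pools, and Cxcl10 is higher.

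Of the 10 genes, Cxcl14 was the only one past the thresholds of the study, 2-fold or more at an unadjusted p under 0.05. It was lower in Cyc cells, and it passed the filter for testing only through the Wt pools, where it was high. Of the 21 probe sets, 15 from 9 genes were bright enough to be tested, with 50 or more in at least 2 pools, and of these 0 were called higher, 1 was called lower and 14 were not called. Over all 20680 tested probe sets, 0.735% were called higher and 0.116% lower. The pools ranked Cyc above Wt without overlap for 2 chemokine probe sets (all tested, 15.1%) and Cyc below Wt for 4 (all tested, 8.23%), while 9 overlapped. Among those without overlap, Cxcl10 and Cxcl14 passed the filter only through the group where they were high. The Cxcl12 probe sets among them read the same gene, so these counts cannot be weighed against the shares of all tested. Fold changes were taken on log2(intensity + 16), which understates those of dim genes. The 15 probe sets had a median log2 fold change of 0.1, against -0.02 over all tested probe sets. Of them, 11 differed in the same direction in both experiments, against 55.2% of all tested. The 11 include all probe sets of Cxcl1 and of Cxcl12, which are not independent readings of those genes. They also include Cxcl16 1418718_at, whose difference in experiment 2 was 0.0. With limma and Benjamini-Hochberg adjustment over all tested probe sets every adjusted p was 1, and 412 probe sets, 2 of them chemokine probe sets, had an unadjusted p under 0.05. The standard errors of the chemokines' log2 fold changes ran from 0.23 to 1.07.

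**Figure D2:**
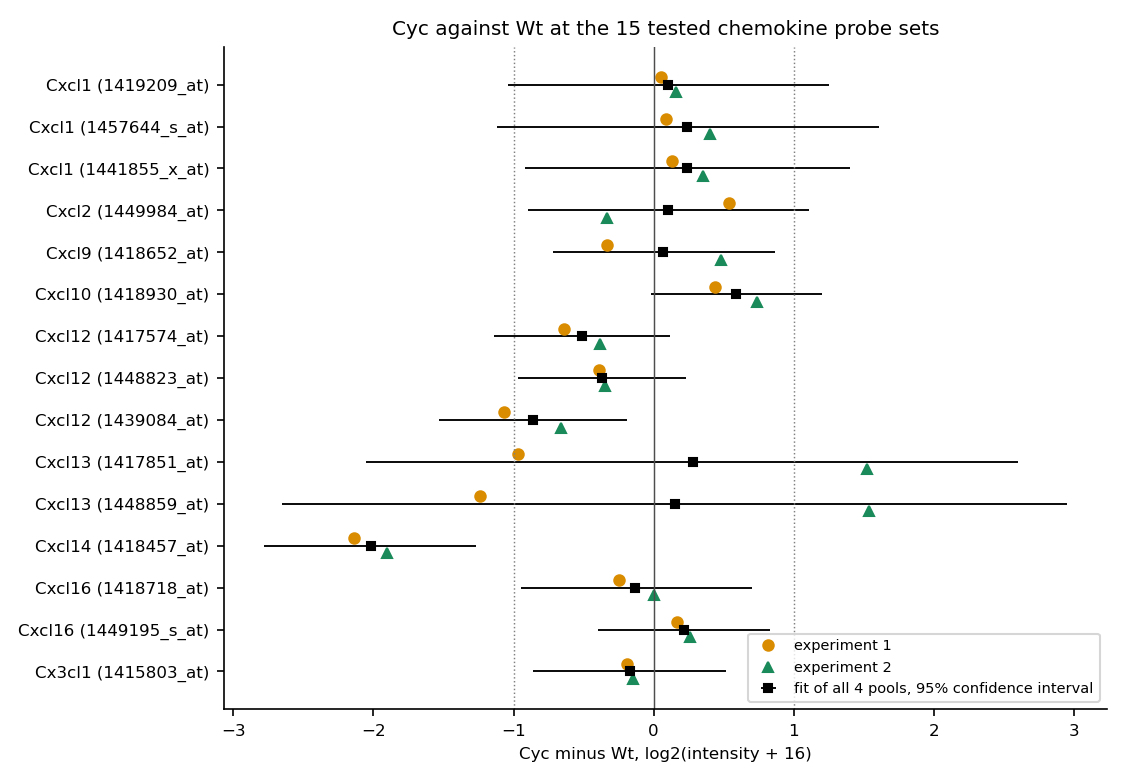
Log2 difference between the Cyc and the Wt pool within each experiment for the 15 tested chemokine probe sets, on log2(intensity + 16), with circles for experiment 1, triangles for experiment 2, squares for the fitted log2 fold change with lines for its 95% confidence interval, and dotted lines at a 2-fold difference. Both experiments lie below 0 for Cxcl14 and the 3 Cxcl12 probe sets and above 0 for Cxcl10, while the 2 Cxcl13 probe sets lie on opposite sides of 0 in the 2 experiments.

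Cxcl14, a chemokine made by epithelia and fibroblasts of many tissues at rest, had an intensity of 6.9 and 3.0 in the Cyc pools of experiments 1 and 2 (probe set 1418457_at), against 85.1 and 55.2 in the Wt pools. Both Cyc pools were thus near background and both Wt pools above it, with no overlap. The log2 difference was -2.14 in experiment 1 and -1.90 in experiment 2, and the fitted log2 fold change was -2.02 (SE 0.29, 95% confidence interval -2.78 to -1.27, unadjusted p of 0.00119 and adjusted p = 1 in limma). As both Cyc pools lay under 50, Cxcl14 can be said only to have been at least 1.37-fold lower in Cyc than in Wt cells. With a filter at 100 it was no longer tested. Its other probe set, 1418456_a_at, gave 1.2 and 11.4 in Cyc and 51.1 and 27.2 in Wt cells and was too dim to be tested. The 2 probe sets pointed the same way, lower in Cyc in both experiments.

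Cxcl12, the ligand of Cxcr4, was lower in both Cyc pools than in both Wt pools at each of its 3 probe sets, although none passed both thresholds. At 1417574_at the intensity was 5854.0 and 7126.2 in the Cyc pools, against 9139.9 and 9261.0 in the Wt pools. This is a mean of 6490 ± 900 in Cyc cells against 9200 ± 85.6 in Wt cells (SD, 2 pools per genotype) and a log2 fold change of -0.51 (SE 0.24, 95% confidence interval -1.14 to 0.12, unadjusted limma p of 0.0899). At 1448823_at the Cyc pools gave 1508.8 and 1691.3 and the Wt pools 1983.8 and 2158.6, a log2 fold change of -0.37 (SE 0.23). The third probe set, 1439084_at, was dim, with 36.7 and 53.2 in Cyc and 94.5 and 93.2 in Wt cells. It showed the largest of the 3 differences, with a log2 fold change of -0.86 (SE 0.26, 95% confidence interval -1.53 to -0.19) and an unadjusted limma p of 0.0217. Without the Cyc pool of experiment 2 its log2 fold change was -1.06, in a fit where 1 Cyc pool was left and had no spread of its own. The same order, Cyc below Wt, was found at all 3 after quantile normalization and after scaling to the same median. The 3 probe sets read the same gene and are not independent of each other. Beside these values, summed endothelial markers reached 23583 and 25077 in Cyc and 26708 and 27625 in Wt cells, with 2 of 5 markers lower in both Cyc pools (all tested, 8.23%). Summed fibroblast markers reached 25317 and 27177 in Cyc and 27328 and 17501 in Wt cells. Of these 5 fibroblast markers, 2 were higher in both Cyc pools (all tested, 15.1%). Of them 1, Col1a1, was called higher (all tested, 0.735%), with a log2 fold change of 1.16 (SE 0.4). The part of endothelium and fibroblasts in the Cxcl12 difference was not tested.

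**Figure D3:**
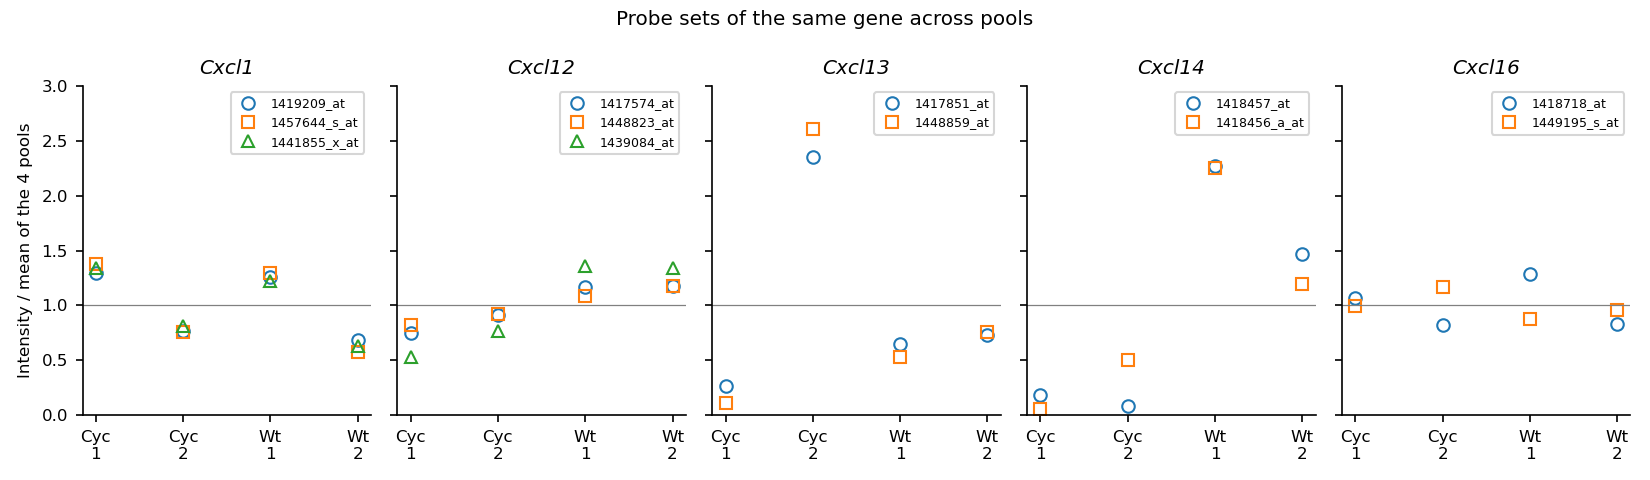
Intensity divided by the mean of the 4 pools (vertical axis, no unit) at the probe sets of Cxcl1, Cxcl12, Cxcl13, Cxcl14 and Cxcl16, with 1 symbol per probe set and the pools Cyc 1, Cyc 2, Wt 1 and Wt 2 from left to right. The 3 Cxcl12 probe sets place both Cyc pools under both Wt pools, the 3 Cxcl1 probe sets place both pools of experiment 1 over both pools of experiment 2, and the 2 Cxcl13 probe sets place the Cyc pool of experiment 2 highest; the 2 Cxcl16 probe sets do not follow each other.

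The promoters of these 2 genes are shown because they are the chemokines that were lower in both Cyc pools. Both are the 250 bases before to 50 after the transcription start from RefSeq in build GRCm38.p6, read 5′ to 3′ on the gene's strand, with GC boxes (GGGCGG on either strand) and an interferon-stimulated response element core (GAAANNGAA on either strand) in capitals. The motifs were chosen after the promoters were read. Cxcl12 (chr6:117168285-117168584, plus strand) holds 5 GC boxes, of which those 16 and 11 bases before the start overlap, and Cxcl14 (chr13:56296502-56296801, minus strand) holds 3, 12 to 24 bases after the start, of which 2 overlap.
Cxcl12: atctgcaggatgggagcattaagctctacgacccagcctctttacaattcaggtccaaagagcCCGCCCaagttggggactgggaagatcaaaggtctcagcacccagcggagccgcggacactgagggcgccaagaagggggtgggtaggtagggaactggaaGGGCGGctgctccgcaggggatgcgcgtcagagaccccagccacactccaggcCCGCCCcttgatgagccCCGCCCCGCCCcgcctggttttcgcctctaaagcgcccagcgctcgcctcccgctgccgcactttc
Cxcl14: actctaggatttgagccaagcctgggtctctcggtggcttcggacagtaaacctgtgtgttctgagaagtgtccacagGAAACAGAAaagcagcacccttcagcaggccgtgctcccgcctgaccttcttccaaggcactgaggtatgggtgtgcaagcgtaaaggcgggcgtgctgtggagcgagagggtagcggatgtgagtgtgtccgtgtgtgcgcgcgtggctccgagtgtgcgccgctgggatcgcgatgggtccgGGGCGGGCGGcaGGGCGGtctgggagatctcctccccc
A GC box was found in 35.7% of 32851 mouse promoters of this length, and 2.71% held 5 or more. The Cxcl12 promoter was 64.7% G and C and that of Cxcl14 62.7%. A match of letters is a description and not a measured binding site.

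The main receptors of Cxcl12 did not pass the thresholds. Cxcr4, through which Cxcl12 attracts cells, had an intensity of 593.2 and 672.3 in the Cyc pools, against 372.4 and 613.0 in the Wt pools, so that the groups overlapped only between 593.2 and 613.0. Its log2 fold change was 0.39 (SE 0.32). Ackr3, which takes up Cxcl12 without G protein signaling, was bright at 5317.7 and 5264.1 in Cyc and 5090.0 and 4037.7 in Wt cells, and the Cyc pools were the higher ones without overlap (log2 fold change 0.22, SE 0.25). Ackr1, a scavenging receptor of venular endothelium for many inflammatory CXC chemokines, gave 203.7 and 226.1 in Cyc and 149.8 and 142.1 in Wt cells, likewise without overlap (log2 fold change 0.51, SE 0.23, unadjusted limma p of 0.0769). Of the 9 receptors listed, 8 were found and 4 tested, with 0 called higher (all tested, 0.735%) and 0 lower (all tested, 0.116%). The median log2 fold change of the 4 was 0.31. Over all tested probe sets, 15.1% had both Cyc pools above both Wt pools and 8.23% had them below. The receptors of leukocytes were dim. Cxcr6, the receptor of Cxcl16, had 46.6 and 55.9 in Cyc and 61.7 and 72.5 in Wt cells, with both Cyc pools below both Wt pools, and Cxcr2, Cxcr5 and Cx3cr1, the receptors of Cxcl1 and Cxcl2, of Cxcl13 and of Cx3cl1, were under 50 in all 4 pools. Cxcr3, the receptor of Cxcl9 and Cxcl10, had 36.5 and 51.3 in Cyc and 44.0 and 33.6 in Wt cells. Among 8 proteases known to cut chemokines or to turn over matrix, 6 were tested and 1, Ctsk, was called higher in Cyc (all tested, 0.735%), at 288.5 and 351.9 in Cyc and 211.4 and 106.4 in Wt cells (log2 fold change 1.0, SE 0.38). Mmp2 and Ctsb, which were bright, were higher in both Cyc pools without passing, with log2 fold changes of 0.47 (SE 0.26) and 0.31 (SE 0.23). Dpp4, which trims the N-terminus of Cxcl12, overlapped between the groups, with 16.6 and 104.1 in Cyc and 58.2 and 22.5 in Wt cells.

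**Figure D4:**
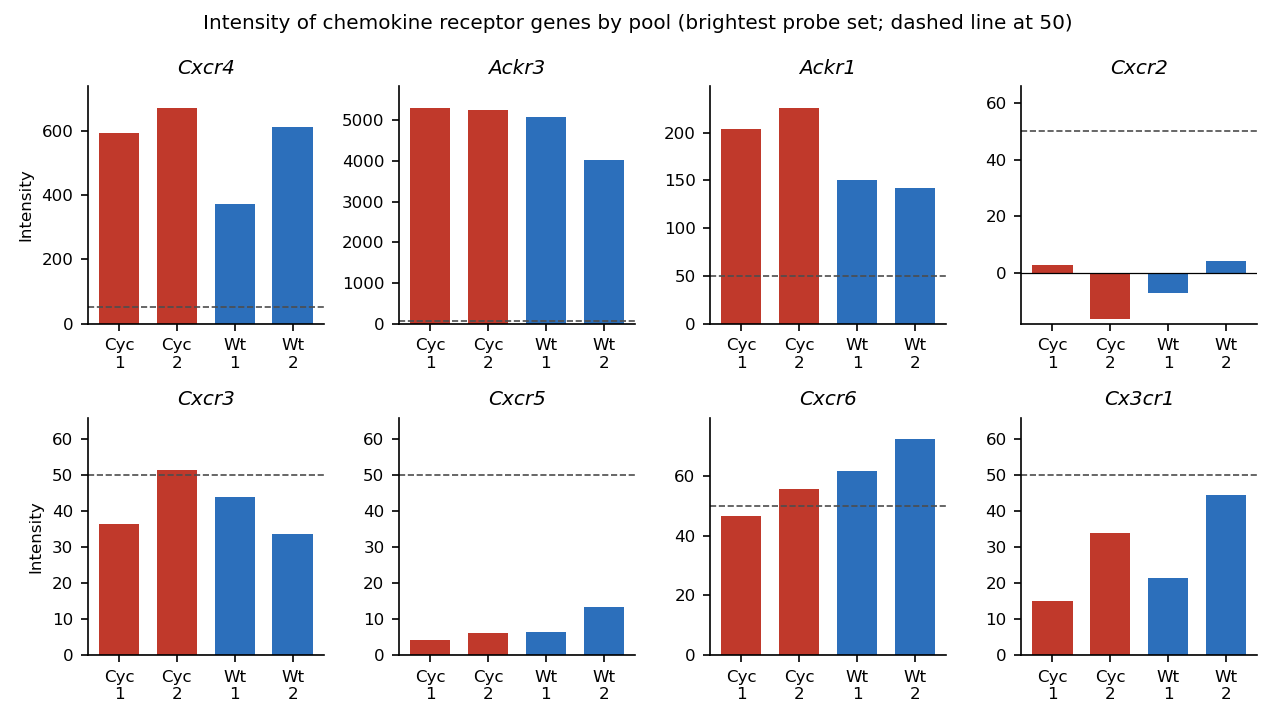
Intensity (vertical axis, linear) of the 8 chemokine receptors found, each at its brightest probe set, in the 2 Cyc pools (red) and the 2 Wt pools (blue), with a scale for each panel and a dashed line at 50. Cxcr4, Ackr3 and Ackr1 lie above the line in all 4 pools, and Cxcr2, Cxcr5 and Cx3cr1 below it in all 4.

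Cxcl1, the main neutrophil attractant of mouse stromal cells, differed between the experiments and not detectably between the genotypes. Its brightest probe set, 1419209_at, had an intensity of 2194.1 and 1291.7 in the Cyc pools of experiments 1 and 2 and of 2120.2 and 1156.7 in the Wt pools. Both pools of experiment 1 were above both pools of experiment 2, and within an experiment Cyc exceeded Wt by 0.05 and 0.16 on the log2 scale. The fitted log2 fold change was 0.10 (SE 0.44, 95% confidence interval -1.04 to 1.25, unadjusted limma p of 0.823). The other 2 probe sets, 1457644_s_at and 1441855_x_at, showed the same split of the experiments, with log2 fold changes of 0.24 each (SE 0.52 and 0.44). Over the 3 probe sets, experiment 1 exceeded experiment 2 by 0.71 to 0.86 on the log2 scale in Cyc and by 0.87 to 1.17 in Wt cells, where the median of all tested probe sets was -0.38 in Cyc and -0.19 in Wt. Of the 15 chemokine probe sets, 5 were higher in both pools of experiment 1, against 9.07% of all tested, and 3 were lower in both, against 51.6% of all tested. Of the 5, 3 are the Cxcl1 probe sets themselves, which are not independent. After quantile normalization or median scaling the Cxcl1 differences between the experiments were larger, from 0.96 to 1.41.

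Of 11 cytokine and NF-κB genes found, 3 were higher in both pools of experiment 1 (all tested, 9.07%) and 5 in both pools of experiment 2 (all tested, 51.6%). Of 10 genes that respond to tissue dissociation, 4 were higher in experiment 1 and 3 in experiment 2 in the same way. Il6, a cytokine, had 1234.8 and 374.1 in Cyc and 487.2 and 159.4 in Wt cells, higher in experiment 1 by 1.68 in Cyc and 1.52 in Wt on the log2 scale, and higher in Cyc by 1.31 and 1.15 (fitted log2 fold change 1.23, SE 0.77). Il6 was not called without a block and passed both thresholds with the experiment as a block (adjusted p = 0.48, limma). Atf3, a stress-induced transcription factor of the dissociation list, had 2895.5 and 1407.0 in Cyc and 2272.5 and 1238.6 in Wt cells. Other members were higher in experiment 2. The log2 differences of experiment 1 minus experiment 2 were -1.38 in Cyc and -0.81 in Wt for Nfkbiz, a regulator of NF-κB, -0.79 in Cyc and -1.23 in Wt for Il1r1, a receptor of interleukin 1, and -1.09 in Cyc and -0.16 in Wt for Fosb, an immediate early gene. Between genotypes, the brightest cytokine and NF-κB genes, Nfkbia, Tnfrsf1a, Nfkbiz and Rela, had log2 fold changes from -0.10 to 0.21, and the brightest dissociation genes, Fos, Dusp1, Egr1 and Jun, from -0.03 to 0.09. None of the 10 dissociation genes and none of 8 tested cytokine and NF-κB genes was called (all tested, 0.735% higher and 0.116% lower). Neutrophil markers were near background, with summed intensities of 93.2 and 29.7 in Cyc and 96.2 and 31.2 in Wt cells, and 3 of 4 markers were under 50 in every pool. Whether isolation or another property of the experiments moved Cxcl1 was not tested.

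Cxcl2, a close relative of Cxcl1 that binds Cxcr2, was dim, at 114.1 and 51.0 in Cyc and 73.4 and 68.5 in Wt cells. The sign of its difference changed between the experiments, with 0.54 in experiment 1 and -0.33 in experiment 2 on the log2 scale, and the fitted value was 0.10 (SE 0.38). Cxcl5, an epithelial neutrophil attractant, was at 33.5 or less in every pool and was not tested.

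The promoters of Cxcl1, Cxcl2 and Cxcl10 share the letters GGAAATTCC, a form of the κB element, which NF-κB binds when inflammatory signals induce a gene. The windows around it, from the same RefSeq promoters, show the element in capitals, as GGAAATTCC on the strand given or as its reverse complement. It lies 70 bases before the start in Cxcl1 (chr5:90890995-90891294, plus strand), 96 in Cxcl2 (chr5:90903649-90903948, plus strand) and 158 in Cxcl10 (chr5:92348840-92349139, minus strand), the coordinates being those of the whole promoters.
Cxcl1 window: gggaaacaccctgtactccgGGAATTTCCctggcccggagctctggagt
Cxcl2 window: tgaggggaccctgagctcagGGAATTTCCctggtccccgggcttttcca
Cxcl10 window: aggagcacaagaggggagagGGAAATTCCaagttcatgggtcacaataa
These letters were found in 104 of 32851 promoters of the same length, or 0.317%. They were chosen after the promoters were read, and the share is that of these letters alone. Other forms of the κB element were not searched, so the other chemokine promoters may hold some. The promoter sequences of 8 of the 10 genes were at hand, and Cxcl5 and Cxcl16 were not among them.

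Cxcl10, an interferon-inducible ligand of Cxcr3, was higher in both Cyc pools, at 51.2 and 61.7, than in both Wt pools, at 33.6 and 30.6. The Wt pools lay near background and the Cyc pools at the edge of detection, so the level was at least 1.12-fold higher in Cyc cells. The log2 fold change was 0.59 (SE 0.23, 95% confidence interval -0.02 to 1.20, unadjusted p of 0.0556 and adjusted p = 1 in limma), with 0.44 in experiment 1 and 0.74 in experiment 2. Cxcl10 passed the filter only through the Cyc pools. Cxcl9, the other such ligand, overlapped between genotypes, with 103.8 and 164.9 in Cyc and 134.5 and 113.9 in Wt cells, and its difference was -0.33 in experiment 1 and 0.48 in experiment 2. Its second probe set stayed at 22.0 or less. Cxcl11, the remaining Cxcr3 ligand and not one of the 10, had 75.8 and 85.2 in Cyc and 54.8 and 42.9 in Wt cells, without overlap (log2 fold change 0.58, SE 0.24). The genotypes were thus separate at Cxcl10 and Cxcl11 and overlapped at Cxcl9.

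Among 11 tested interferon inputs and targets, 4 were called higher (all tested, 0.735%) and 0 lower (all tested, 0.116%). These were Ifit3 (log2 fold change 1.96, SE 0.50), Irf7 (1.61, SE 0.41), Ifit1 (1.54, SE 0.48) and Usp18 (1.34, SE 0.37), all of them targets of type I interferon. The study had already placed Irf7 and Usp18 among its differentially expressed genes from the same arrays. The list was chosen with earlier results known, so its count cannot be weighed against the shares of all tested. Ifit3 had 511.6 and 1250.0 in Cyc and 236.0 and 158.2 in Wt cells. The list's median was 0.31. Irf1, an interferon target that binds the Cxcl9 and Cxcl10 promoters, was lower in both Cyc pools (all tested, 8.23%). It had 2209.3 and 2134.0 in Cyc and 2718.1 and 2367.8 in Wt cells (log2 fold change -0.22, SE 0.23). Ifng, the gene of interferon γ, was at 4.6 or less in every pool. Each of the 4 called genes had the larger difference in experiment 2, which for Ifit3 was 1.07 in experiment 1 and 2.86 in experiment 2. Gbp2, another bright member of the list, had a log2 fold change of 0.09 (SE 0.32) and overlapped between genotypes. Ifngr1, a receptor chain of interferon γ, and Irf9 had 0.31 (SE 0.25) and 0.24 (SE 0.33). The part of any interferon in the Cxcl10 difference was not tested. The Cxcl10 promoter is shown with the κB letters GGAAATTCC and the response element core (GAAANNGAA) in capitals. The core lies 213 bases before the start. Other forms of the κB element were not searched and stay in lower case.
Cxcl10: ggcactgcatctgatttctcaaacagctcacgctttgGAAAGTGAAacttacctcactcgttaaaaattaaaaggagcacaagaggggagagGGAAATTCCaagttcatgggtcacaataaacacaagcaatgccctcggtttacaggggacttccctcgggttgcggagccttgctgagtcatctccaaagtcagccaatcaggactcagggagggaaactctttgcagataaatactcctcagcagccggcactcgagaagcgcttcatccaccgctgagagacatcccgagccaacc
The core was found in 8.56% of the promoters and, among the chemokines, also in Cxcl9 and Cxcl14.

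**Figure D5:**
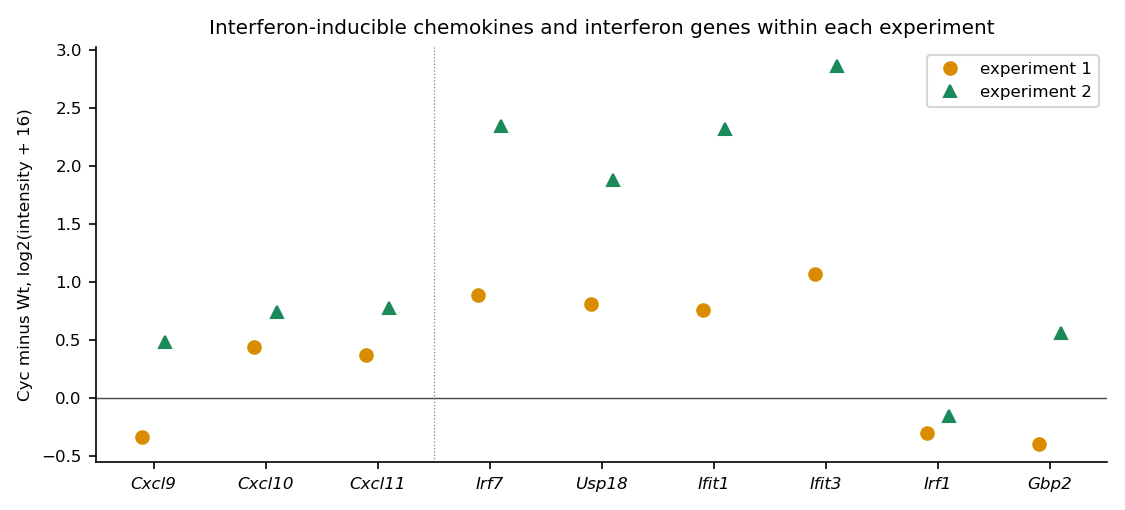
Log2 difference between the Cyc and the Wt pool within each experiment for Cxcl9, Cxcl10, Cxcl11 and interferon-related genes, on log2(intensity + 16), with circles for experiment 1 and triangles for experiment 2. Cxcl10, Cxcl11, Ifit1, Ifit3, Irf7 and Usp18 lie above 0 in both experiments, while Cxcl9 lies on both sides.

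On these arrays Cxcl13, which attracts B cells through Cxcr5, was high in 1 pool. At 1417851_at the intensity was 30.2 and 269.2 in the Cyc pools of experiments 1 and 2 and 74.4 and 83.4 in the Wt pools, and at 1448859_at it was 8.2 and 201.6 in Cyc and 41.2 and 58.7 in Wt cells. The Cyc pool of experiment 2 was the highest and that of experiment 1 the lowest at both probe sets, so that the Wt pools lay between them. Within experiments the log2 differences were -0.97 and 1.52 at the first probe set and -1.24 and 1.54 at the second, and the fitted values were 0.28 (SE 0.89) and 0.15 (SE 1.07). Neither was called. Without the Cyc pool of experiment 1 the log2 fold changes of the 2 probe sets were 1.59 and 1.74, and without that of experiment 2 they were -1.04 and -1.43. In each of these fits 1 Cyc pool was left, with no spread of its own. The values therefore show only how far that pool lay from the Wt pools. The Cyc pool of experiment 2 also had the highest sums of B cell markers (1684, next to 218 in the Cyc pool of experiment 1, 357 and 234 in Wt), of macrophage markers (1130, next to 385, 402 and 209), of airway and alveolar markers and of mesothelial markers (1794, next to 584, 1039 and 660, in the same order of pools). It was highest as well for smooth muscle and pericyte markers (20194, next to 10674, 9491 and 13263) and for T and NK cell markers (337, next to 193, 96.6 and 179). The 2 lymphoid stroma markers found summed to 29.2 or less in every pool. Of the 4 B cell markers found, Ighm alone was over 50 in all 4 pools. Cxcl17, an airway chemokine outside the 10, was likewise high in that pool only, with 14.4 and 215.9 in Cyc and 21.4 and 2.6 in Wt cells. The part of these cell types in the Cxcl13 values was not tested.

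Cxcl16, a membrane-bound ligand and scavenger of oxidized lipids, was at 189.6 or more in every pool, and its 2 probe sets differed in sign. At 1449195_s_at the pools gave 214.8 and 251.6 in Cyc and 189.6 and 206.9 in Wt cells, with both Cyc pools above both Wt pools and a log2 fold change of 0.22 (SE 0.23). At 1418718_at they gave 268.1 and 207.4 in Cyc, against 322.2 and 207.6 in Wt cells, and the pools overlapped, with a log2 fold change of -0.13 (SE 0.32). The data therefore gave no direction for Cxcl16. Cx3cl1, fractalkine, which endothelium presents to Cx3cr1-bearing leukocytes, was measured at 1 of 4 probe sets, with 193.7 and 248.5 in Cyc and 223.0 and 276.9 in Wt cells. Its difference was -0.19 in experiment 1 and -0.15 in experiment 2, with a fitted log2 fold change of -0.17 (SE 0.26), and the other 3 probe sets were at 13.8 or less in every pool. The Cx3cl1 pools overlapped as deposited, while both Cyc pools were below both Wt pools after quantile normalization and after median scaling. Adam10 and Adam17, the proteases that shed both proteins, had log2 fold changes of 0.09 (SE 0.30) and -0.14 (SE 0.24). The pools of these 2 sheddases overlapped between genotypes.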

How the data were processed

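RNA of Sca-1 cells from 2 Cyc and 2 Wt pools was hybridised to Affymetrix mouse whole-genome expression arrays. The deposited values are intensities on a linear scale, normalized by the authors in Resolver 7.2. The background correction and summary method are not given in the sources used here, and some values lie below 0. Values under 0 were set to 0, 16 was added and log2 taken. The 20680 of 45037 probe sets with 50 or more on at least 2 of 4 arrays went into a fit with limma 3.58.1 under R 4.3.3 (2 residual and 2.68 prior degrees of freedom, two-sided, Benjamini-Hochberg over all tested), with all 4 arrays and no block. The error model of Resolver behind the study's p-values was not run, and only its thresholds were kept. Probe sets were named by the platform annotation, in which 34945 have 1 symbol, 932 several and 9160 none. Genes of lists were read at their brightest probe set, and the 4 brightest and those past the thresholds were to be named. Il6, Il1r1, Atf3, Fosb, Dpp4, Ifng, Cxcr2, Cxcr3, Cxcr5 and Cx3cr1 were named outside this rule after their values were seen, and cell markers are given as sums. Where both pools of a group lay under 50, the bound is the geometric mean of the brighter group, each value at least 50, over 50. The number of arrays limits the precision. The chemokines and lists were chosen with earlier results of these data known. Alternatives were pseudocounts of 1 and 50, no filter or one at 100, quantile normalization, median scaling, the replicate number as a block, an intensity trend, the methods' t-test, arithmetic means and leaving out each array.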

Additional observations from a re-analysis of the deposited data

How the results depend on the processing

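Over all tested probe sets, 152 were called higher and 24 lower. The number called higher was 93 with a pseudocount of 50, 47 with the methods' t-test and 117 to 581 when each pool was left out, the most without the Cyc pool of experiment 1. The number called lower was 46 with a pseudocount of 1, 37 without the filter, 7 with the methods' t-test, 47 with arithmetic means and 29 to 1050 when each pool was left out, the most without the Cyc pool of experiment 2. With the replicate block, 47 were called lower and 191 higher. Replicate numbers 1 and 2 were taken as the experiments from the poly-A controls, as the labels do not tie them. The deviations of same-numbered pools correlated at 0.447 over the tested probe sets. The block left the calls of the chemokines unchanged, with 0 higher and 1 lower, and gave Cxcl14 an adjusted p of 0.172 (limma).

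Of the chemokine probe sets, 0 were called higher and 1 lower. The number called lower was 2 with a pseudocount of 1 and 2 with arithmetic means, where Cxcl12 1439084_at joined Cxcl14, and 0 with a filter at 100, where Cxcl14 was no longer tested. Leaving out a pool gave 0 to 2 called higher, with both Cxcl13 probe sets without the Cyc pool of experiment 1, and 1 to 4 called lower, with Cxcl14, Cxcl12 1439084_at and both Cxcl13 probe sets without the Cyc pool of experiment 2. These fits set 1 pool against both pools of the other genotype. The spread came from those 2 pools and, through limma, from all tested probe sets, so the lone pool is assumed to vary like them. The median log2 fold change of the genes was 0.07, against -0.13 with a filter at 100 and -0.28 to 0.17 when each pool was left out. Cxcl13 at 1448859_at turned to -0.22 with a pseudocount of 1. When each pool was left out, these log2 fold changes took both signs: Cxcl1 -0.33 to 0.54 (1419209_at), -0.34 to 0.83 (1457644_s_at) and -0.22 to 0.70 (1441855_x_at), Cxcl2 -0.37 to 0.58, Cxcl9 -0.22 to 0.37, Cxcl13 -1.04 to 1.59 and -1.43 to 1.74, and Cxcl16 1418718_at -0.43 to 0.17. The cause was not tested. Cxcl14 ran from -2.28 to -1.77 when each pool was left out and was called each time, but its size depended on the pseudocount, with -1.12 at 50, -3.62 at 1 and -3.82 with arithmetic means. Cxcl10 stayed positive and the 3 Cxcl12 probe sets negative under every alternative in which they were tested. No receptor was called under any alternative.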

Other observations

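The platelet chemokines Pf4 and Ppbp lie outside the 10 genes, and neither was called. The Pf4 pools overlapped between genotypes. Pf4 stood at 271.7 and 141.8 in the Cyc pools of experiments 1 and 2, against 221.4 and 202.4 in the Wt pools. Ppbp had 97.4 and 28.7 in Cyc and 129.0 and 119.1 in Wt cells, with both Cyc pools below both Wt pools (log2 fold change -0.98, SE 0.49, not called). Summed platelet markers, which include both genes, came to 521 and 312 in Cyc and 500 and 449 in Wt cells.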
